A study of Mus musculus with 16 samples.

Results

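Slc10a2, Slc51a, Slc51b, Fabp1, Fabp2 and Fabp6 are genes of bile acid and fatty acid handling, and they are 6 of the 16039 genes measured by single-cell RNA sequencing in the mouse transverse colon. They were chosen by their measured levels across the epithelial cell types of this data set, AltEnterocyte2 and AltEnterocyte3 above all. Their pattern over cell types is therefore described without a test, and the tests given compare arms over mice. The arms were also in view in that choice, and the shares of these cell types differ between arms. The tests between arms are therefore not independent of how the genes were chosen. All mice were 7-week-old C57BL/6 females, 16 in number. In the treated arm, 6 mice drank 4% dextran sulfate sodium (DSS), which injures the colonic epithelium, and on day 4 received 10 mg/kg of SZN-1326-p, the protein that the series title links to Wnt activation through Frizzled (FZD) receptors. In the control arm, 6 mice drank DSS and received 10 mg/kg of an anti-GFP antibody, which has no target in these mice. The uninjured arm had 4 mice on 0% DSS, for which the labels give no dose of either protein. Cells were taken 24 h (day 5) and 48 h (day 6) after dosing, from 3, 3 and 2 mice of the SZN-1326-p, anti-GFP and uninjured arms at each time, each mouse being 1 replicate and 1 library.

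The deposited annotation places 10373 of 22717 cells in the epithelium and divides them into 17 of 46 cell types, whose names are used here as the authors wrote them. Total unique molecular identifiers (UMIs, each a counted RNA molecule) per library ran from 9.62e+06 to 2.13e+07, and the median UMIs of an epithelial cell ran from 8690 to 14646 in SZN-1326-p mice, from 9102 to 17164 in anti-GFP mice and from 7134 to 12462.5 in uninjured mice. Levels are normalized UMIs per cell, averaged within a mouse, and depend on the gene's capture, so they are compared between cells and not between genes. The summed level of 15 colonocyte markers per epithelial cell was 64.6 to 149 in SZN-1326-p mice, 170 to 326 in anti-GFP mice and 280 to 415 in uninjured mice. Its part in the results below was not tested. In 1 anti-GFP mouse the summed level of 12 immune markers per epithelial cell was 16.7, against at most 1.78 in the other 15 mice, and 4 libraries (SZN-1326-p mouse 1, anti-GFP mice 1 and 2 and uninjured mouse 1, all at 24 h) had relatively more reads from long transcripts. Epithelial cells with UMIs of at least 2 immune or stromal markers made up 4.38 to 14.5% in SZN-1326-p mice, 3.92 to 22.9% in anti-GFP mice and 2.68 to 6.65% in uninjured mice, and for the 6 genes over the epithelium, each value whose call changed without these cells is given below. Between libraries 64 cell barcodes were shared, in 129 cells, 61 of them epithelial. AltEnterocyte2 and AltEnterocyte3 each carried 14 of the 15 colonocyte markers at 0.5 normalized UMIs or more, with 1 at 0. Only 2 and 3 of the 15 stood at over 2 times the level of all epithelial cells, against 13 in Enterocyte and 13 in AltEnterocyte. The 0.5 level was also reached by 6 of 7 goblet markers in AltEnterocyte2 and 7 of 7 in AltEnterocyte3, with 0 over 2 times the level of all epithelial cells. Of 7 enteroendocrine markers, 0 in AltEnterocyte2 and 1 in AltEnterocyte3 reached 0.5. In AltEnterocyte3, 7 of 12 stromal markers stood at over 2 times the level of all epithelial cells while 4 were at 0, none reaching 0.5. So did 5 of 12 immune markers there, with 1 at 0 and 1 reaching 0.5.

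Bile acids are made in the liver, help to dissolve dietary fat in the small intestine, and are largely recovered in the ileum. Slc10a2 encodes ASBT, the sodium-dependent transporter that takes bile acids up across the apical membrane of ileal enterocytes. Fabp6 encodes the ileal bile acid-binding protein of the cytosol, and Slc51a and Slc51b encode the α and β subunits of the transporter that exports bile acids across the basolateral membrane. Both subunits are needed for transport. Fabp1 and Fabp2 encode the liver and intestinal fatty acid-binding proteins, which carry long-chain fatty acids in the enterocyte cytosol. FXR, encoded by Nr1h4, is the nuclear receptor that bile acids activate, and Fabp6, Slc51a and Slc51b are known targets of it.

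The 6 genes lie on 6 chromosomes of the mm10 genome (GENCODE vM21): Fabp2 at chr3:122895072-122899506 and Fabp1 at chr6:71199827-71205023 on the plus strand, and Slc10a2 at chr8:5083219-5105351, Slc51b at chr9:65412714-65422955, Fabp6 at chr11:43596049-43601540 and Slc51a at chr16:32474504-32487879 on the minus strand. The promoter windows of the 4 bile acid genes are shown because Slc10a2, Slc51a and Slc51b had their levels in the same cell types, and Fabp6 was seen in a few cells together with them. Each window runs from 250 bases before to 50 bases after the transcript start, whose base is counted as 0, 5′ to 3′ on the gene's strand (RefSeq, GRCm38.p6). Capitals mark matches on either strand to 6 motifs chosen with these sequences in view: the E-box CACGTG, an HNF1 motif (TTAAT and ATTAA with any base between them), an HNF4 motif CAAAGT, a CDX motif TTTATNG, an FXR inverted repeat (GGTCA, any base, T, any base, ACC) and the TATA box TATAAA.
Slc10a2: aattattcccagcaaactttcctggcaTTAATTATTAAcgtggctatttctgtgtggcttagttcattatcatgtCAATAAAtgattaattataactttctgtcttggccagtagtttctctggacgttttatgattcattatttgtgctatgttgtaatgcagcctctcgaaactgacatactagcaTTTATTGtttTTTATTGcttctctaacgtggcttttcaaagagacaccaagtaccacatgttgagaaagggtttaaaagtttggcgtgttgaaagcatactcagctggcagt
Slc51a: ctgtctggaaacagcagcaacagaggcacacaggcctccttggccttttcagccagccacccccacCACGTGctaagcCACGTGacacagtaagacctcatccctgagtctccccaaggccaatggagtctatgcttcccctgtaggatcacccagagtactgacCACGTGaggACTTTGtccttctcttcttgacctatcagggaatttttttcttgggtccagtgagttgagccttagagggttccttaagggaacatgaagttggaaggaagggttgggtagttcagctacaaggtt
Slc51b: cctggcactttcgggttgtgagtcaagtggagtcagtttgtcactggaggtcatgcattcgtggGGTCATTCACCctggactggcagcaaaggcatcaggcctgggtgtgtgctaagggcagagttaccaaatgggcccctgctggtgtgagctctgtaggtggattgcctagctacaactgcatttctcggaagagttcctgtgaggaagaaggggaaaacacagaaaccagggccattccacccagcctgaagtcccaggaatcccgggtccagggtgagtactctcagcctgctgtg
Fabp6: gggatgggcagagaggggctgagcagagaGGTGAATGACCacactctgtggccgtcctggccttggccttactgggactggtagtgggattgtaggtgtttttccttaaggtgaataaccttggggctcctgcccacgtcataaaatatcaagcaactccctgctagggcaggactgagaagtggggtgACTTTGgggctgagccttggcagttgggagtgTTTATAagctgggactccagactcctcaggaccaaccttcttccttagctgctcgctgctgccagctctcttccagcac

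The windows were chr8:5105238-5105537 for Slc10a2, chr16:32487830-32488129 for Slc51a, chr9:65422724-65423023 for Slc51b and chr11:43601513-43601812 for Fabp6. The inverted repeat was present in the Slc51b window at bases -186 to -176 from the start and in the Fabp6 window at bases -221 to -211, with the same letters, GGTCATTCACC, read on opposite strands. That motif occurs in 45 of the 32851 windows of this length (0.137%). Slc10a2 held 1 HNF1 match at bases -223 to -213, a motif found in 40 windows (0.122%), and 3 CDX matches, a number reached by 21 windows (0.0639%). Slc51a held 3 E-boxes, a number reached by 29 windows (0.0883%), and 1 HNF4 match, and Fabp6 held 1 HNF4 match and 1 TATA match. At least 1 HNF4 match occurs in 14.4% of windows and at least 1 TATA match in 13.6%. Of the fatty acid-binding proteins, Fabp1 held 3 CDX matches and 1 TATA match, and Fabp2 held 1 CDX and 1 HNF4 match. None of the 6 motifs overlapped another in the windows shown, and a match is a description of the letters, not a site of binding.

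Slc10a2, the apical transporter, had its highest level in AltEnterocyte2, at 4.77 ± 2.24 normalized UMIs per cell (SD, n = 11 mice with at least 10 such cells), followed by AltEnterocyte3 at 2.15 ± 1.58 (n = 9), Enterocyte at 1.26 ± 0.983 (n = 4) and AltEnterocyte at 0.965 ± 0.595 (n = 12). Neighbours in that order overlapped within their SDs. These and the later type means pool whichever arms had such mice. Those of Enterocyte, ImmEntero1 and ImmEntero2 come from the 4 uninjured mice only, and those of AltEnterocyte from 6 SZN-1326-p and 6 anti-GFP mice only. AltEnterocyte2 had 3 SZN-1326-p, 5 anti-GFP and 3 uninjured mice, and AltEnterocyte3 had 4, 3 and 2. The order over types therefore mixes cell type with arm. A Slc10a2 UMI was seen in 331 of 438 AltEnterocyte2 cells, 75.6% (exact binomial 95% interval 71.3 to 79.5%), against 1 of 1008 BasalGoblet cells (0.0992%), a type that should lack the gene, at median depths of 14423.5 and 8242.5 UMIs. In AltEnterocyte3 the share was 31.8%, at a median depth of 3021 UMIs. With each cell thinned to 2000 UMIs, which left out 2 AltEnterocyte2 and 88 AltEnterocyte3 cells, the shares were 38.8% and 26.8%. Of the tuft cells, of median depth 4131 UMIs, 0 of 158 carried a UMI, which allows a share of cells with a UMI of up to 1.90%. Intervals and limits of this kind cover counting error only.

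Slc51a, the α subunit, was highest in AltEnterocyte2 at 4.13 ± 1.12 (n = 11), and AltEnterocyte3 followed at 1.51 ± 1.26 (n = 9), a gap wider than the 2 SDs. The next types, Enterocyte, ImmEntero2, AltEnteroPC and ImmEntero1, lay between 0.222 and 0.303. Slc51b, the β subunit, was spread over more types: AltEnterocyte had 2.33 ± 1.41 (n = 12), AltEnterocyte2 2.30 ± 0.904 (n = 11), ImmEntero2 1.84 ± 0.311 (n = 4), Enterocyte 1.44 ± 0.238 (n = 4) and ImmEntero1 1.12 ± 0.160 (n = 4). Each neighbouring pair of those 5 types overlapped within the SDs. AltEnterocyte3 had 0.441 ± 0.443 Slc51b (n = 9), so the order of the subunits over types differed: AltEnterocyte3 ranked 2 of 17 for Slc51a and 7 of 17 for Slc51b. The shares of cells with a UMI were 85.4% for Slc51a and 77.2% for Slc51b in AltEnterocyte2, against 0.397% and 0.893% in BasalGoblet.

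Fabp2, the intestinal fatty acid-binding protein, had its highest levels in other types than Slc10a2 and Slc51a. They were 53.9 ± 11.6 in ImmEntero2 and 41.8 ± 11.1 in Enterocyte (n = 4 each), 18.9 ± 3.21 in ImmEntero1 (n = 4) and 12.0 ± 8.30 in AltEnterocyte2 (n = 11). ImmEntero1 lay below Enterocyte by more than their SDs, and the other neighbours among these 4 types overlapped. Of these 4 types only AltEnterocyte2 includes DSS mice, and each of its uninjured mice, given below, lay above the 12.0. AltEnteroPC had 5.68 ± 3.03 (n = 16) and AltEnterocyte3 4.08 ± 4.39 (n = 9), and the lowest epithelial type was EnteroEnd2 at 0.357 ± 0.102 (n = 2). Fibroblasts, which should lack the gene, held 0.0925 to 0.310 normalized Fabp2 UMIs per cell in SZN-1326-p mice, 0.0524 to 0.147 in anti-GFP mice and 0.249 to 0.685 in uninjured mice, so a Fabp2 level of that size in any type is not read as expression.

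**Figure D1:**
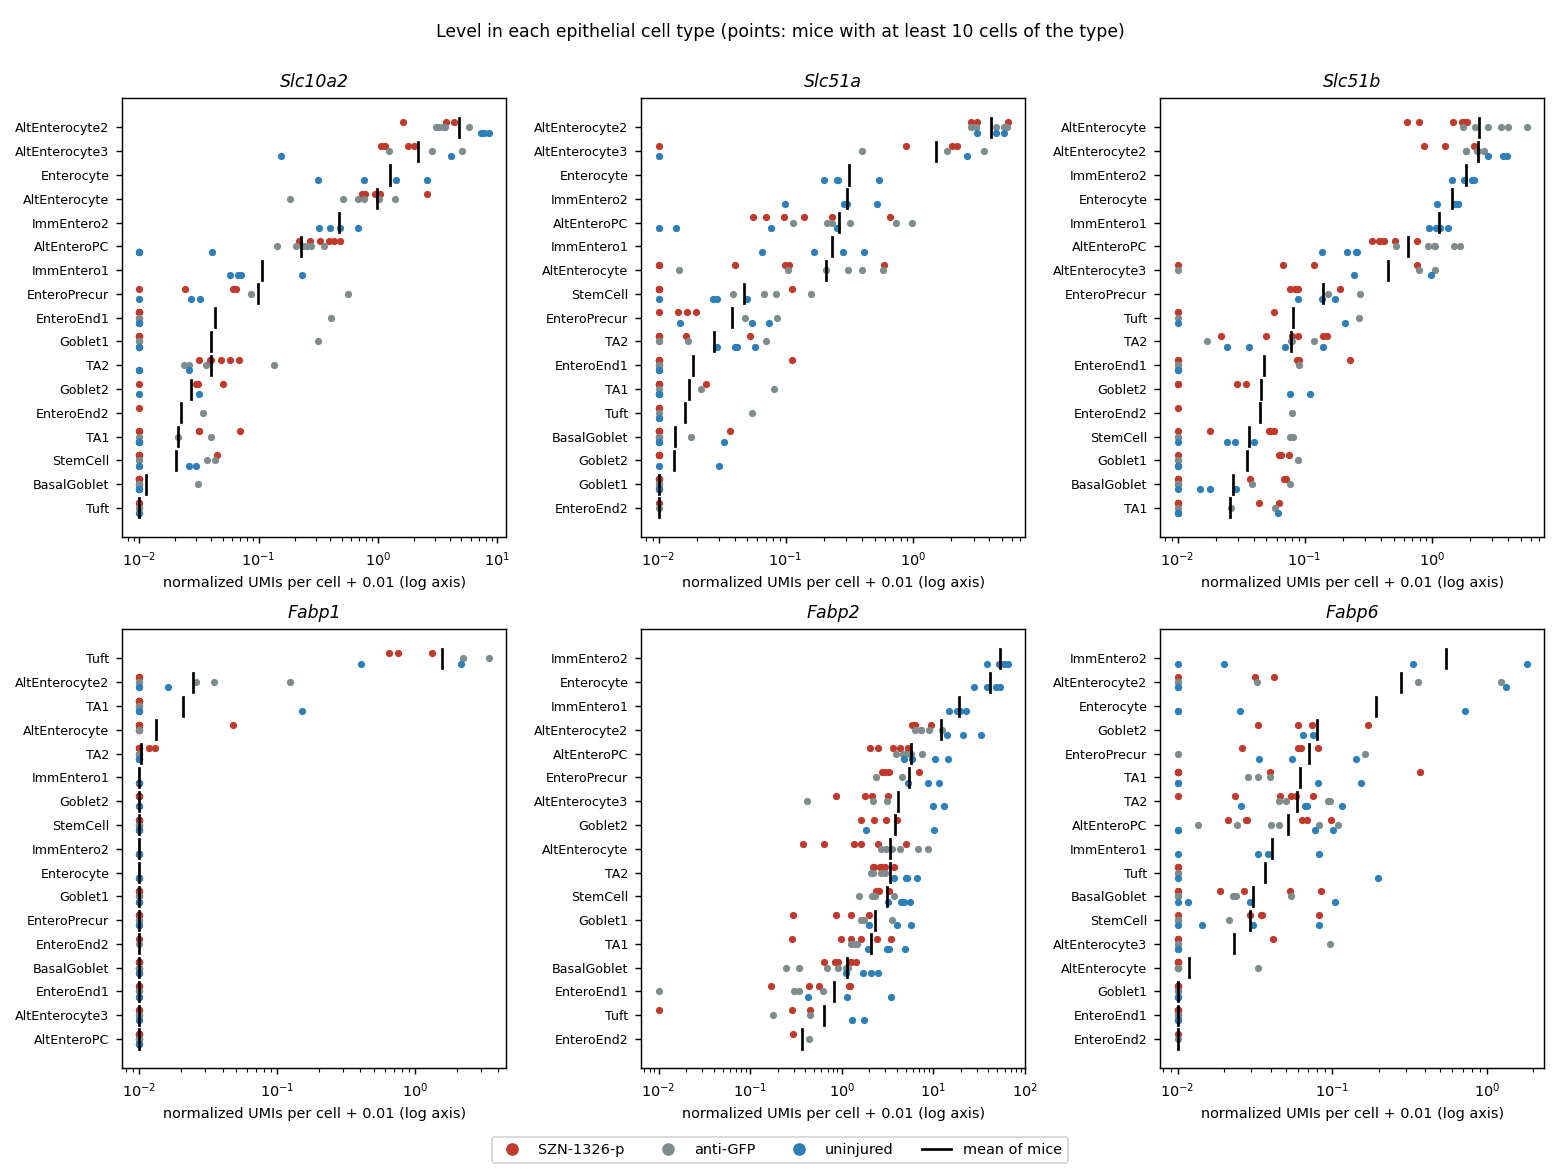
Level of each of the 6 genes in the 17 epithelial cell types, as normalized UMIs per cell on a log axis with 0.01 added. Each point is 1 mouse with at least 10 cells of the type and each bar is the mean of those mice, whatever their arm. Slc10a2 and Slc51a peak in AltEnterocyte2, Slc51b is shared over the absorptive types, Fabp2 peaks in ImmEntero2 and Enterocyte, and Fabp1 stands in Tuft.

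Within AltEnterocyte2, the share of cells with Slc51a was higher among cells with Slc10a2 than among cells without, and that of Slc51b was close in both. Slc51a was seen in 91.5% of the cells with a Slc10a2 UMI, against 66.4% of the cells without one, although the cells with Slc10a2 were the shallower ones (median 13792 against 18088 UMIs). Slc51b was seen in 77.9% of cells with Slc10a2 and 74.8% of cells without. It was seen in 81.0% of cells with Slc51a and 54.7% of those without, cells that also differed in depth (median 15763 against 8570 UMIs). All 3 transporter RNAs were seen in 241 of 438 AltEnterocyte2 cells (55.0%), and none of the 3 in 18 (4.11%). In AltEnterocyte3, 55.0% of cells with Slc10a2 and 13.9% of those without had Slc51a, at median depths of 4119 and 2448.5 UMIs, and all 3 were seen in 20 of 349 cells (5.73%). Fabp2 was seen in 91.8% of AltEnterocyte2 cells with Slc10a2 and in 92.5% of those without.

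Over the 17 types, Slc10a2 and Slc51a had a Pearson correlation of 0.927 (log2 of the level plus 0.01), Slc10a2 and Slc51b one of 0.877, and Fabp1 and Fabp2 one of -0.319. Fabp2 had correlations of 0.750 with Slc51b, 0.680 with Slc51a and 0.666 with Slc10a2. The types share libraries but differ in depth and in which arms gave their mice. The values are therefore descriptive and carry differences between arms. Among the 6059 genes of at least 0.5 normalized UMIs in some type, those most like Slc10a2 were Ces2a (0.954), Znrf2 (0.950) and Efna1 (0.944), and those most like Slc51a were Prap1 (0.962), Ces2a (0.927) and Fmo5 (0.921). Ces2a encodes a carboxylesterase. For Slc51b they were Car1 (0.964), Cyp2c55 (0.960) and Sptssb (0.956), Car1 being the carbonic anhydrase of colonocytes. For Fabp2 they were Tst (0.946), Lgals3 (0.940) and Sfn (0.937). Nr1h4, the FXR gene, had its highest level in AltEnterocyte2 (2.01) and its next in AltEnterocyte3 (1.57).

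The first comparison sets the anti-GFP mice, which had DSS colitis, against uninjured mice, and asks how these genes differed over the whole epithelium. The arms differ both in DSS and in the antibody dose, whose effects cannot be told apart. Fabp2 fell and the 3 bile acid transporter genes did not pass the test in either direction. Fabp2 was 3.17, 3.44 and 4.44 at 24 h and 3.77, 3.10 and 2.64 at 48 h in anti-GFP mice, against 15.3 and 32.1 at 24 h and 20.5 and 21.0 at 48 h in uninjured mice. Every anti-GFP mouse lay below every uninjured mouse. The mean was 3.43 ± 0.624 (SD, n = 6) in anti-GFP mice and 22.2 ± 7.09 (n = 4) in uninjured mice, a log2 change of -2.66 ± 0.25 (SE; limma, Benjamini-Hochberg adjusted p = 2.72e-06). In a sample of dissociated tissue, fewer cells that carry a gene and less of its RNA per cell give the same change in such a mean, and the cell types are taken apart below.

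Slc10a2 was 1.63, 0.552, 0.672, 0.298, 0.395 and 0.216 in anti-GFP mice (24 h, then 48 h), against 0.127, 0.371, 0.643 and 0.996 in uninjured mice. The groups overlapped, and the log2 change was 0.25 with a 95% interval of -0.49 to 0.99 (adjusted p = 0.631). Slc51a was 1.27, 0.364, 0.947, 0.219, 0.476 and 0.125 in anti-GFP mice, against 0.0643, 0.207, 0.245 and 0.573 in uninjured mice, a log2 change of 0.98 with an interval of -0.26 to 2.21 (adjusted p = 0.234). Slc51b averaged 0.863 ± 0.288 in anti-GFP mice and 0.819 ± 0.203 in uninjured mice, and its interval of -0.47 to 0.56 was the narrowest of the 3 (log2 change 0.05, adjusted p = 0.899). In these intervals a change of 2-fold in either direction is outside the range for Slc51b, and inside it for a rise of Slc51a.

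Fabp1 and Fabp6, both at low levels, passed the same test only narrowly. Fabp1 averaged 0.0642 ± 0.0426 in anti-GFP mice and 0.0128 ± 0.0176 in uninjured mice (log2 change 1.62 ± 0.57, adjusted p = 0.0494), and Fabp6 0.0464 ± 0.0350 and 0.156 ± 0.154 (log2 change -1.04 ± 0.32, adjusted p = 0.0292). The Fabp1 call was lost in 16 of 27 alternative settings. In 12 of these 1 mouse was left out: 3 of the uninjured mice (adjusted p 0.128 without mouse 1 and 0.0927 without mouse 2 at 24 h, 0.237 without mouse 1 at 48 h), 4 anti-GFP mice (0.103 and 0.0779 without mice 2 and 3 at 24 h, 0.0992 and 0.108 without mice 1 and 2 at 48 h) and 5 SZN-1326-p mice, mice 1 and 2 at 24 h and 1, 2 and 3 at 48 h, which share the fit's estimate of spread (0.0525 to 0.0608). The Fabp6 call was lost without uninjured mouse 2 at 24 h (0.113), mouse 1 or 2 at 48 h (0.133 and 0.0563), or anti-GFP mouse 1 at 24 h (0.068) or at 48 h (0.0582). It was also lost without cells bearing 2 immune or stromal markers (-0.86, adjusted p = 0.138), and the value turned to 0.10 when 7 cells were left out, as described with those cells below. Among the 10795 genes tested, 23.3% were called in either direction, 10.8% as higher and 12.5% as lower, and 3 of the 6 genes were called, 1 higher and 2 lower.

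**Figure D2:**
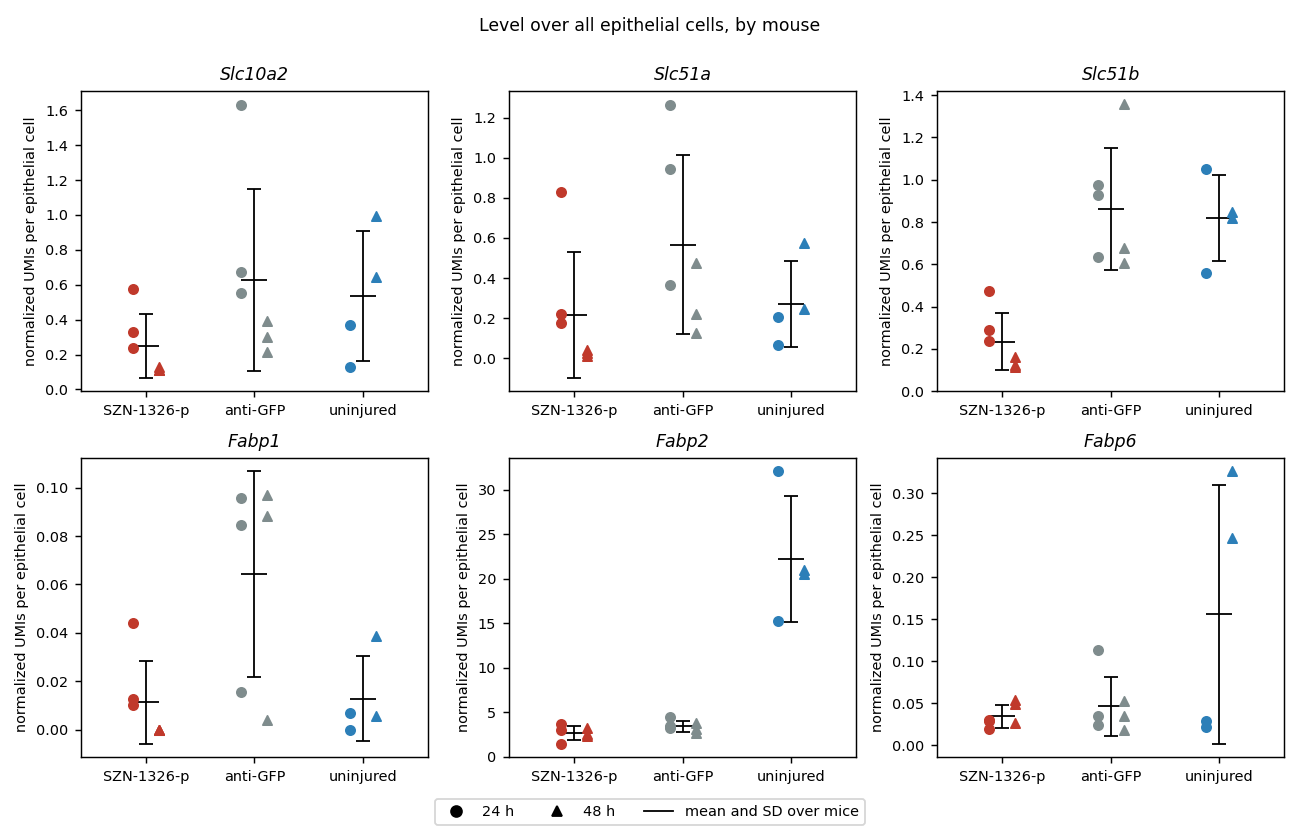
Level of each gene over all epithelial cells of a mouse, as normalized UMIs per cell, in SZN-1326-p, anti-GFP and uninjured mice. Circles are mice at 24 h, triangles mice at 48 h, and the line and bar give the mean and SD of the arm. Uninjured mice stand alone at 15.3 or more for Fabp2, and SZN-1326-p mice lie below all anti-GFP mice for Slc51b.

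Behind these means of the epithelium lay different cell types. Enterocyte, ImmEntero1 and ImmEntero2 together held 0.423% of epithelial cells in anti-GFP mice and 46.1% in uninjured mice, and the 4 types AltEnterocyte, AltEnterocyte2, AltEnterocyte3 and AltEnteroPC held 44.2% and 7.26%. Of the Slc10a2 RNA, the 4 Alt types held 96.2% in anti-GFP mice and 42.4% in uninjured mice, while the 3 enterocyte types held 0% and 57.2%. For Slc51b the Alt types held 96.0% in anti-GFP mice and 11.5% in uninjured mice, and the enterocyte types 0.896% and 85.7%. AltEnterocyte2 alone held 71.1% of Slc51a at 24 h and 60.9% at 48 h in anti-GFP mice, against 14.1% at 24 h and 56.0% at 48 h in uninjured mice, and 60.7% and 43.1% of Slc10a2, against 18.9% and 43.5%. The uninjured mice of 24 h gave 18 AltEnterocyte2 cells and those of 48 h gave 94. For Fabp2 the enterocyte types held 3.00% in anti-GFP mice and 86.9% in uninjured mice. The type names were assigned by the authors from the RNA of these same cells, so a cell that changed its state and a cell lost and replaced cannot be told apart.

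**Figure D3:**
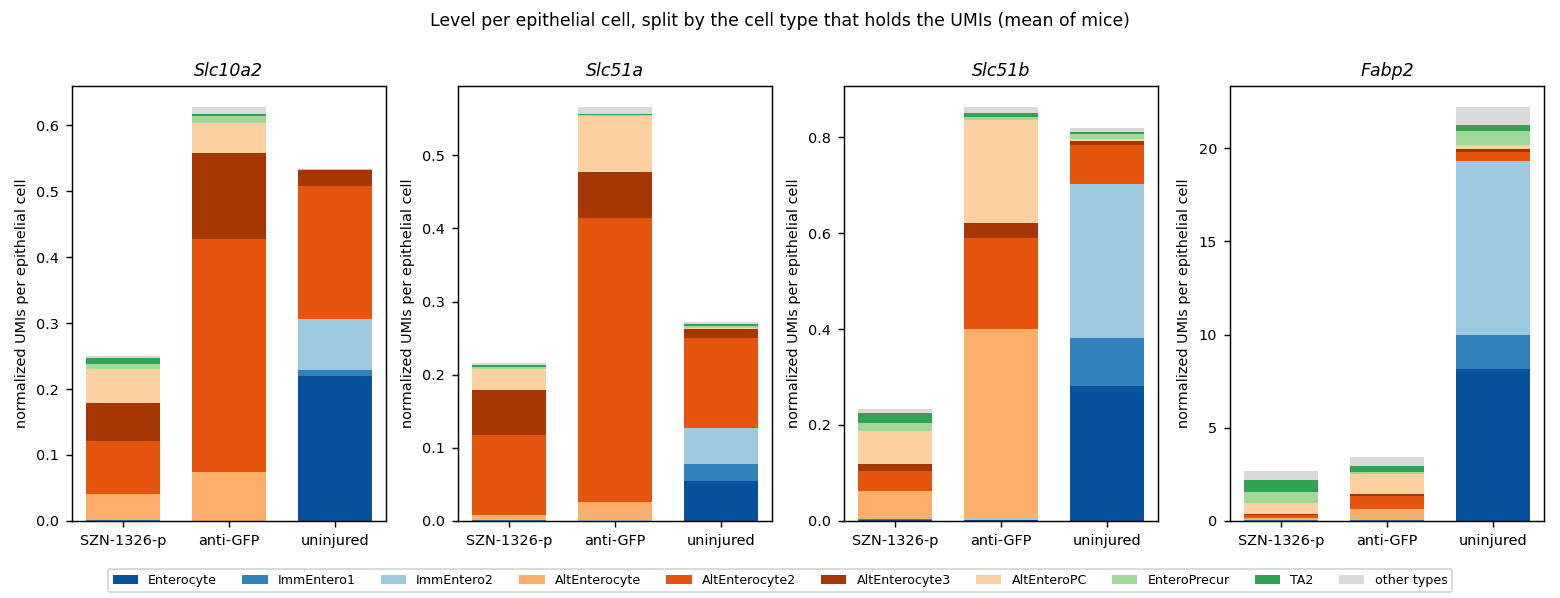
Normalized UMIs per epithelial cell of Slc10a2, Slc51a, Slc51b and Fabp2, divided by the cell type that holds them, in SZN-1326-p, anti-GFP and uninjured mice. In anti-GFP mice nearly all transporter RNA is in the Alt types (96.2% of Slc10a2), and in uninjured mice 86.9% of Fabp2 is in Enterocyte, ImmEntero1 and ImmEntero2.

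Within AltEnterocyte2, the type with the highest Slc10a2 and Slc51a, Fabp2 was lower in anti-GFP than in uninjured mice and Slc51a was not called. Fabp2 was 7.25, 6.37, 7.40, 12.6 and 9.03 in 5 anti-GFP mice, against 33.0, 21.0 and 14.2 in 3 uninjured mice, without overlap (log2 change -1.47 ± 0.25, adjusted p = 0.00158). The call was lost with limma voom on UMI sums (-0.82, adjusted p = 0.182) and with at least 20 cells per mouse (-1.30, adjusted p = 0.133). Slc10a2 was 5.82, 3.23, 3.08, 3.48 and 3.67 in anti-GFP mice, against 7.77, 8.50 and 7.34 in uninjured mice. Each anti-GFP mouse was below each uninjured mouse, and the log2 change of -1.07 ± 0.31 had an adjusted p of 0.0459, lost in 11 of 19 alternatives. Among these were the fits without uninjured mouse 1 or 2 at 48 h (0.177 and 0.0916), without anti-GFP mouse 2 or 3 at 24 h (0.0893 and 0.0653) or 1 or 2 at 48 h (0.0952 and 0.0958), and without SZN-1326-p mouse 2 at 24 h (0.0521). Slc51a averaged 4.21 ± 1.19 in anti-GFP mice and 4.27 ± 0.995 in uninjured mice, a log2 change of 0.05 with an interval of -0.55 to 0.65 (adjusted p = 0.949). Slc51b averaged 2.17 ± 0.301 and 3.42 ± 0.591, again without overlap (-0.68, adjusted p = 0.173). Of the 10191 genes tested in AltEnterocyte2, 4.94% were called, 1.06% as lower, and of the 5 members tested 2 were called, both lower.

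In AltEnterocyte3, 3 anti-GFP mice had Fabp2 levels of 3.10, 2.20 and 0.413, against 9.88 and 13.2 in 2 uninjured mice, which do not overlap (log2 change -3.00 ± 0.56, adjusted p = 0.000174). The call was lost on the mean of the deposited log2 values (adjusted p = 0.0595) and with mice of at least 5 cells (-1.96, adjusted p = 0.0527). It was 1 of 4 members tested there, where 0.268% of genes were called and 0.206% as lower. Arms were compared without time in this type. All 3 anti-GFP mice were of 24 h, and 1 uninjured mouse was of 24 h and 1 of 48 h, so arm and time are mixed. Slc10a2 in AltEnterocyte3 was 5.09, 1.22 and 2.83 in anti-GFP mice, against 0.145 and 4.07 in uninjured mice (log2 change 1.72, adjusted p = 0.710, and 3.18 with 0.0415 when mice of at least 5 cells entered), and the intervals of all 3 transporters there were wide (0.40 to 3.04 for Slc10a2, -4.81 to 10.98 for Slc51a and -5.29 to 2.76 for Slc51b).

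In AltEnteroPC all 3 transporter genes were higher in anti-GFP than in uninjured mice. AltEnterocyte, with no uninjured mouse of 10 cells, could not be compared. Slc10a2 was 0.340, 0.242, 0.194, 0.223, 0.132 and 0.264 in anti-GFP mice, against 0.0303 in 1 uninjured mouse and 0 in the other 3. Slc51b was 0.512, 0.916, 1.04, 1.66, 1.05 and 1.48 in anti-GFP mice, against 0.126, 0.242, 0.247 and 0.205 in uninjured mice, and neither gene's groups overlapped. Slc51a was 0.968, 0.222, 0.723, 0.202, 0.309 and 0.104 in anti-GFP mice, against 0.00384, 0.0663, 0 and 0.241 in uninjured mice, with 1 uninjured mouse inside the anti-GFP range. The log2 changes were 4.04 ± 0.40 for Slc10a2 (adjusted p = 3.82e-06), 2.33 ± 0.27 for Slc51b (1.44e-05) and 3.03 ± 0.73 for Slc51a (0.00825, and 1.89 with 0.244 by limma voom). With so many values at 0 the size for Slc10a2 depends on the 0.01 added before the log, so the UMIs are given too: 163 Slc10a2 UMIs in 375 anti-GFP cells against 1 in 108 uninjured cells, a ratio per total UMIs of 24.4 with a counting interval of 4.32 to 970.3. A Slc10a2 UMI was seen in 17.3% of these anti-GFP cells and 0.926% of the uninjured ones, at median depths of 20396 and 9143.5 UMIs. For Slc51b the ratio was 5.06 (3.37 to 7.94), and for Slc51a 4.39 (2.28 to 9.72). These ratios pool the cells of all mice, and 56 of the 108 uninjured cells came from 1 mouse. Their intervals cover counting error only and leave out the spread between mice, so they are not a test between arms.

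Fabp2 in AltEnteroPC averaged 5.41 ± 1.23 in anti-GFP mice and 8.86 ± 4.45 in uninjured mice and was not called (log2 change -0.60, 95% interval -1.28 to 0.07, adjusted p = 0.197). Of the 10619 genes tested in this type 18.7% were called, 14.9% as higher, and 3 of the 5 members tested were called, all higher. The transporter change differed between types: the AltEnteroPC level minus the AltEnterocyte2 level of the same mouse (log2) averaged -4.05 in 5 anti-GFP mice and -9.62 in 3 uninjured mice for Slc10a2, -3.32 and -6.19 for Slc51a, and -1.14 and -3.82 for Slc51b. The uninjured mice so compared had no Slc10a2 UMI in AltEnteroPC, so the size for Slc10a2 depends on the 0.01 added before the log. For each of the 3 transporters the groups did not overlap, and the exact two-sided permutation test gave p = 0.0357, the smallest that its 56 arrangements allow. Adjusted over the 4 genes compared, that p was 0.0476. Times were pooled: 3 anti-GFP mice and 1 uninjured mouse were of 24 h, and 2 of each arm were of 48 h. The genes were chosen in part by their level in AltEnterocyte2, so the test is not independent of that choice. Among the 9717 genes measured in both types, 12.7% had groups that did not overlap in this difference, 9.37% with anti-GFP mice higher. For Fabp2, the fourth gene so compared, the means were -0.66 and -1.26 (exact permutation p = 0.321). Fabp2 also fell in TA2, to 2.48 ± 0.424 in anti-GFP mice, against 5.10 ± 1.19 in uninjured mice (n = 4 each, log2 change -0.93 ± 0.19, adjusted p = 0.00941, with 4.78% of genes called and 1.99% as lower). In EnteroEnd1 it averaged 0.309 ± 0.249 in 4 anti-GFP mice and 1.67 ± 1.60 in 3 uninjured mice, which overlapped (log2 change -3.29 ± 0.79, adjusted p = 0.00932, with 0.868% of genes called and 0.247% as lower). The fibroblast levels of Fabp2 given above were also lower in anti-GFP than in uninjured mice, and the part of free RNA in the low levels of TA2 and EnteroEnd1 was not tested.

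**Figure D4:**
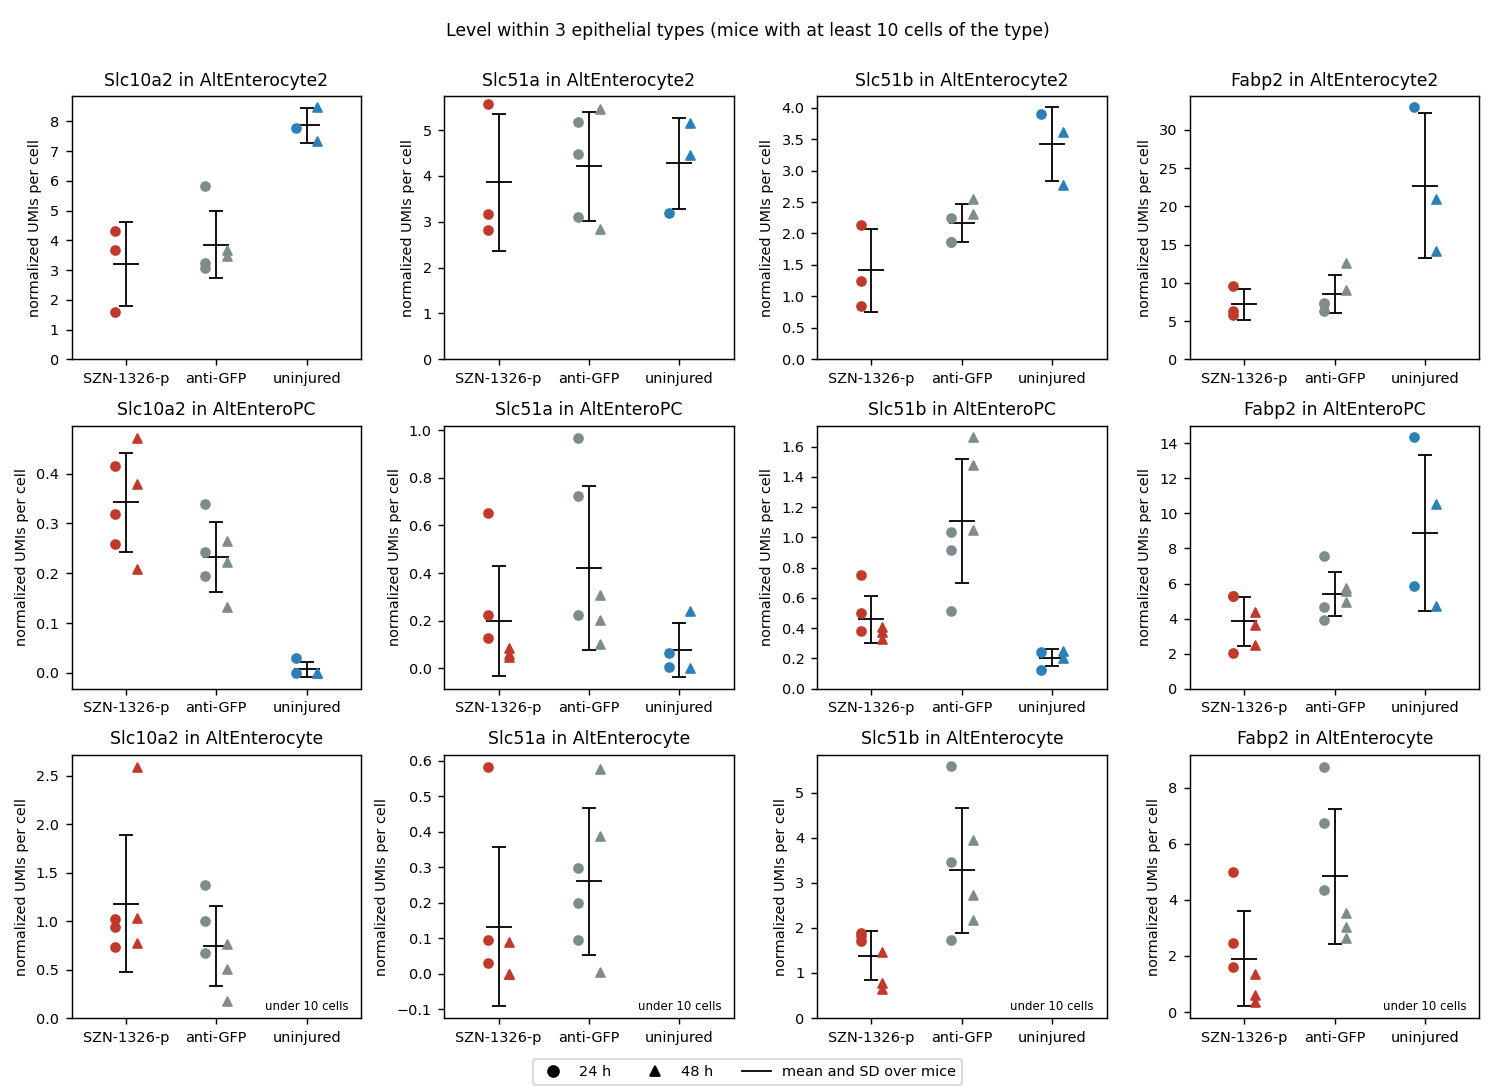
Levels of Slc10a2, Slc51a, Slc51b and Fabp2 within AltEnterocyte2, AltEnteroPC and AltEnterocyte, as normalized UMIs per cell, for each mouse with at least 10 cells of the type in the SZN-1326-p, anti-GFP and uninjured arms (circles 24 h, triangles 48 h, bars mean and SD). In AltEnteroPC, Slc10a2 is at 0.132 or more in every anti-GFP mouse and at 0.0303 or less in every uninjured mouse. No uninjured mouse has 10 AltEnterocyte cells.

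The second comparison sets SZN-1326-p against anti-GFP in mice that all had DSS, and it shares its anti-GFP mice with the first, so the changes of the 2 comparisons are not independent. All 3 bile acid transporter genes fell over the epithelium, Slc51b with no overlap between the arms, and Fabp2 was not called. Slc51b was 0.236, 0.476 and 0.289 at 24 h and 0.125, 0.161 and 0.116 at 48 h in SZN-1326-p mice, against 0.635, 0.976 and 0.929 at 24 h and 1.36, 0.675 and 0.605 at 48 h in anti-GFP mice. Every SZN-1326-p mouse was below every anti-GFP mouse, with means of 0.234 ± 0.136 and 0.863 ± 0.288 (n = 6 each) and a log2 change of -1.95 ± 0.22 (adjusted p = 3.6e-05), which kept its direction and its call in all 27 alternatives. Slc10a2 was 0.331, 0.577, 0.238, 0.114, 0.129 and 0.114 in SZN-1326-p mice, against 1.63, 0.552, 0.672, 0.298, 0.395 and 0.216 in anti-GFP mice. The arms overlapped across times, and the log2 change was -1.23 ± 0.31 (adjusted p = 0.00996, called in all 27 alternatives). Slc51a was 0.174, 0.830, 0.220, 0.0380, 0.0237 and 0.0111 in SZN-1326-p mice, against 1.27, 0.364, 0.947, 0.219, 0.476 and 0.125 in anti-GFP mice (log2 change -2.08 ± 0.51, adjusted p = 0.0109, and 0.0735 on the mean of the deposited log2 values).

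Fabp2 averaged 2.68 ± 0.770 in SZN-1326-p mice and 3.43 ± 0.624 in anti-GFP mice, with a log2 change of -0.39 and an interval of -0.86 to 0.08 (adjusted p = 0.195). Adding a term for 4 libraries with more reads from long transcripts brought it past the threshold (-0.54, adjusted p = 0.0034). With that term Fabp2 was also called lower at 24 h (-0.84, adjusted p = 0.00642), the time of all 4 libraries. Fabp1 fell to 0.0112 ± 0.0171 in SZN-1326-p mice, against 0.0642 ± 0.0426 in anti-GFP mice (log2 change -1.76 ± 0.51, adjusted p = 0.0175, and 0.064 without SZN-1326-p mouse 2 at 24 h and mouse 3 at 48 h, the 2 DSS mice with the highest median mitochondrial share over all their cells, though not over their epithelial cells). Fabp6 was not called (-0.20, adjusted p = 0.634). Of all genes tested 28.1% were called, 17.2% as lower, and 4 of the 6 members were called, all lower. Over the same mice the tuft marker sum was 0.167 to 1.54 in SZN-1326-p mice and 0.615 to 2.32 in anti-GFP mice, and that of 7 stem and proliferation markers 2.44 to 6.70 and 2.01 to 3.47. The part of either in these results was not tested.

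By time, Slc51b was called at both. At 24 h it averaged 0.334 ± 0.126 in SZN-1326-p mice and 0.846 ± 0.185 in anti-GFP mice (n = 3 each, log2 change -1.35 ± 0.31, adjusted p = 0.0132), where 10.1% of genes were called and 4.25% as lower. That call was lost without anti-GFP mouse 2 at 24 h (0.0696), without SZN-1326-p mouse 3 at 24 h (0.0631) and when only these 6 mice were fitted (0.0641). At 48 h it averaged 0.134 ± 0.0242 and 0.879 ± 0.415 (-2.54 ± 0.31, adjusted p = 7.92e-05), where 12.5% were called and 10.1% as lower. Slc51a at 48 h averaged 0.0243 ± 0.0135 in SZN-1326-p mice and 0.273 ± 0.182 in anti-GFP mice (-2.93 ± 0.71, adjusted p = 0.0208), a call lost without anti-GFP mouse 1 (0.0554) or 2 (0.0617) or SZN-1326-p mouse 2 (0.0683) or 3 (0.0685) of that time, with limma voom (0.0715), with a constant of 0.1 (0.111) and on the mean of the deposited log2 values (0.375). Fabp1 at 48 h was 0 in all 3 SZN-1326-p mice and 0.0971, 0.0884 and 0.00409 in anti-GFP mice (adjusted p = 0.0373, lost in 9 of 27 alternatives, including each fit without 1 of the 3 SZN-1326-p mice). Most Fabp1 was in tuft cells, as described below. At 48 h SZN-1326-p mice gave only 11 of these, against 26 in anti-GFP mice, at median depths of 2876 and 4725.5 UMIs. A count of 0 in 11 allows a share of cells with a UMI of up to 27.3%. Slc10a2 did not overlap at 48 h, at 0.119 ± 0.00851 in SZN-1326-p mice and 0.303 ± 0.0895 in anti-GFP mice, and was not called (-1.24, adjusted p = 0.0797). It was called in 5 of 27 alternatives: with only the groups compared (0.00168), without anti-GFP mouse 1 at 24 h (0.0344), without uninjured mouse 1 or 2 at 24 h (0.0455 each) and without cells bearing 2 immune or stromal markers (0.0475). At 24 h 1 of the 6 members was called and at 48 h 3, all lower. The difference between the 48 h and the 24 h effect was not called for any member, a test in which 0.139% of genes were called. For Slc51b, which had the lowest p of the 6, that difference was -1.19 (adjusted p = 0.365).

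Cell numbers of AltEnterocyte2 differed between these arms, a difference that was not tested. The type made up 4.87 ± 2.88% of epithelial cells at 24 h and 0.205 ± 0.197% at 48 h in SZN-1326-p mice, against 13.6 ± 4.39% at 24 h and 4.35 ± 2.02% at 48 h in anti-GFP mice (n = 3 each). Only 3 AltEnterocyte2 cells came from SZN-1326-p mice at 48 h, so levels within the type could be compared only with SZN-1326-p mice of 24 h. Within AltEnterocyte2 no member was called between 3 SZN-1326-p and 5 anti-GFP mice, a test in which limma called 0.00981% of 10191 genes (1 gene, with 478 at an unadjusted p under 0.05). Slc10a2 was 4.32, 3.68 and 1.60 in SZN-1326-p mice, against 3.08 to 5.82 in anti-GFP mice, and Slc51a was 2.83, 5.57 and 3.16, against 2.84 to 5.45. Slc51b was 0.854, 2.14 and 1.25 in SZN-1326-p mice, against 1.86 to 2.55 in anti-GFP mice, a log2 change of -0.70 with an interval of -1.28 to -0.13 (adjusted p = 0.952). In AltEnterocyte3, Slc10a2 was 1.13, 1.77, 1.99 and 1.06 in SZN-1326-p mice, against 5.09, 1.22 and 2.83 in anti-GFP mice, and none of the 4 members tested was called, where 0.217% of genes were (21 genes). Arms were compared without time there, as 1 SZN-1326-p mouse was of 48 h and all 3 anti-GFP mice were of 24 h.

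Slc51b fell within both AltEnterocyte and AltEnteroPC, and Fabp2 within AltEnterocyte. In AltEnterocyte, Fabp2 was 1.61, 5.01, 2.47, 0.625, 0.366 and 1.36 in SZN-1326-p mice, against 4.37, 6.74, 8.75, 3.52, 3.05 and 2.65 in anti-GFP mice. Slc51b there was 1.71, 1.89, 1.82, 0.786, 1.46 and 0.633 in SZN-1326-p mice, against 1.73, 3.46, 5.59, 3.95, 2.74 and 2.18 in anti-GFP mice. Their log2 changes were -1.69 ± 0.30 for Fabp2 (adjusted p = 0.00538) and -1.25 ± 0.26 for Slc51b (0.0105), both called in all 21 alternatives, in a type where 0.934% of genes were called and 0.526% as lower. At 48 h alone the arms did not overlap for either gene (Fabp2 -2.15, adjusted p = 0.0185, and Slc51b -1.66, adjusted p = 0.0262, with 0.556% of genes called and 0.397% as lower). Slc10a2 in AltEnterocyte was 1.18 ± 0.703 in SZN-1326-p mice and 0.748 ± 0.414 in anti-GFP mice and was not called (0.75, interval 0.05 to 1.44, adjusted p = 0.379). At 48 h alone Slc10a2 was higher without overlap, at 1.47 in SZN-1326-p mice and 0.479 in anti-GFP mice on average, and did not pass the test either (1.62, adjusted p = 0.116). In AltEnteroPC, Slc51b fell to 0.458 ± 0.153 in SZN-1326-p mice, against 1.11 ± 0.411 in anti-GFP mice (-1.22 ± 0.24, adjusted p = 0.0286, with 0.509% of genes called and 0.226% as lower). At 48 h the arms did not overlap, at 0.371 ± 0.0409 in SZN-1326-p mice and 1.39 ± 0.316 in anti-GFP mice (-1.86, adjusted p = 0.0468, with 0.0565% of genes called and 0.0377% as lower). The call over both times was lost in 10 of 25 alternatives, 9 of them leaving out 1 mouse each: anti-GFP mouse 2 or 3 at 24 h or 1 or 3 at 48 h (0.109, 0.052, 0.110 and 0.114), and SZN-1326-p mouse 1 or 3 at 24 h or 1, 2 or 3 at 48 h (0.0563, 0.0935, 0.0969, 0.0982 and 0.0501). Slc10a2 in AltEnteroPC was 0.342 ± 0.0987 in SZN-1326-p mice and 0.233 ± 0.0696 in anti-GFP mice and was not called (0.54, adjusted p = 0.599).

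Of the RNA of the whole epithelium, the 4 Alt types held 91.9% of Slc10a2, 95.5% of Slc51a, 78.8% of Slc51b and 34.5% of Fabp2 in SZN-1326-p mice, against 96.2%, 97.5%, 96.0% and 70.3% in anti-GFP mice. The share of Fabp2 outside both the Alt and the enterocyte types was 63.3% in SZN-1326-p mice and 26.7% in anti-GFP mice.

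**Figure D5:**
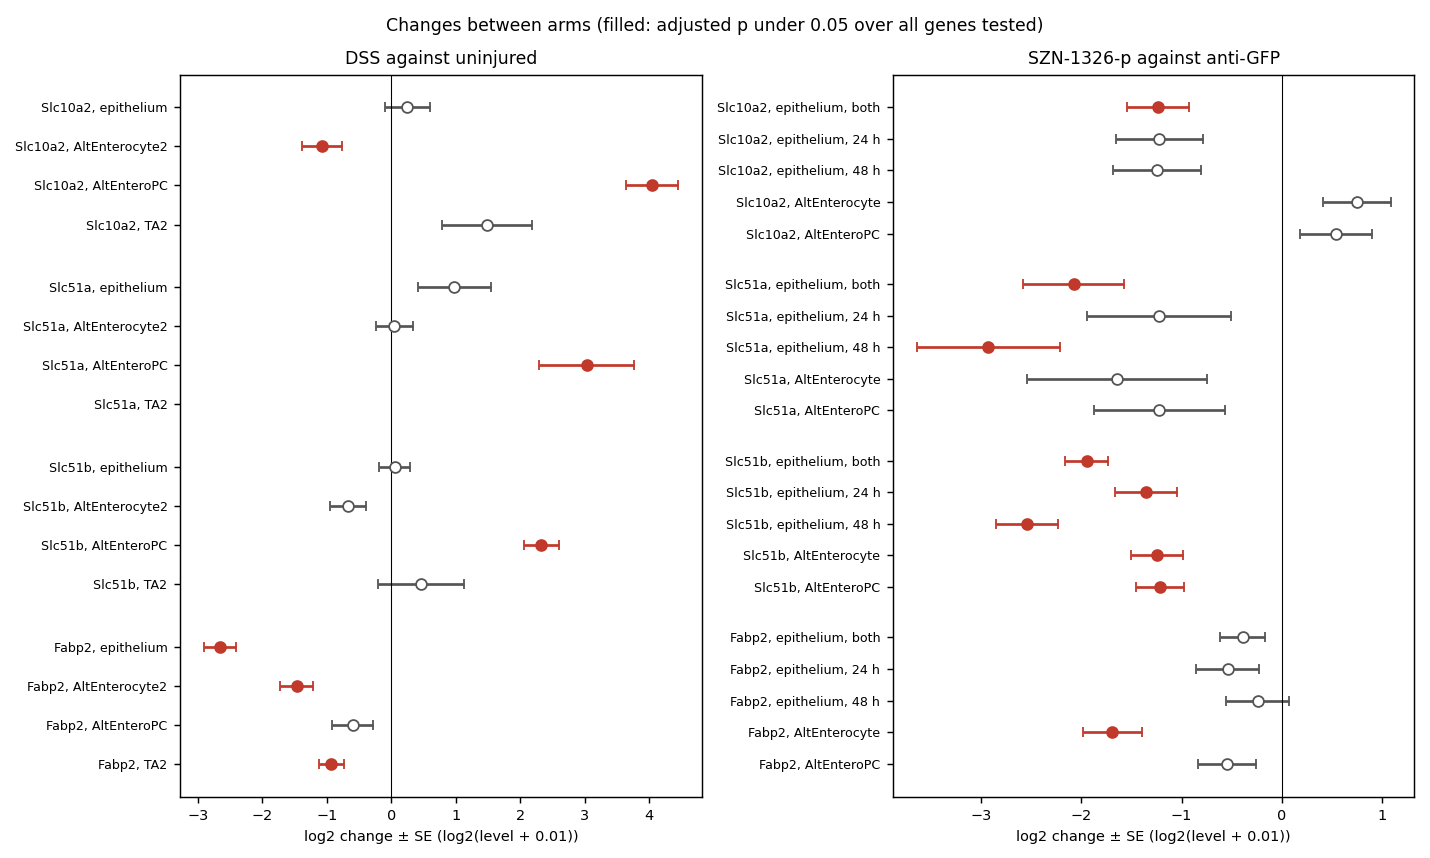
Log2 changes with their standard errors for Slc10a2, Slc51a, Slc51b and Fabp2 over the epithelium and within cell types, for anti-GFP against uninjured mice on the left and SZN-1326-p against anti-GFP mice on the right. Filled symbols have an adjusted p under 0.05, and Slc51a passed the filter on low values in no TA2 fit, so its line is empty. In anti-GFP against uninjured mice Fabp2 is lower over the epithelium (-2.66) and Slc10a2 higher in AltEnteroPC (4.04). In SZN-1326-p against anti-GFP mice Slc51b is lower over the epithelium (-1.95).

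Fabp1, the liver fatty acid-binding protein, was found in tuft cells, a chemosensory cell type. Of its 185 UMIs, 168 (90.8%) were in the 158 tuft cells, of which 41 carried at least 1 (25.9%, exact binomial 95% interval 19.3 to 33.5%). Of the other 22559 cells 15 carried one, and 0 of the 1907 Enterocyte, ImmEntero1 and ImmEntero2 cells did. The median depth was 4131 UMIs in Tuft and 7481 in Enterocyte. The highest count was 34 UMIs in a tuft cell and 2 in any other cell. In Tuft, 5 of 6 tuft markers stood at 0.5 normalized UMIs or more and 0 of them at 0. The share of tuft cells with Fabp1 was 20.0% (11 of 55, interval 10.4 to 33.0%) in SZN-1326-p mice, 44.0% (22 of 50, 30.0 to 58.7%) in anti-GFP mice and 15.1% (8 of 53, 6.75 to 27.6%) in uninjured mice, at median depths of 3406, 5090.5 and 3310 UMIs. In SZN-1326-p mice the 11 cells with Fabp1 were among 44 tuft cells of 24 h, and 48 h gave only 11 tuft cells. These shares pool cells over mice, each of which gave 2 to 18, 6 to 10 and 7 to 20 tuft cells in the 3 arms in that order. Their intervals cover counting error only and are not a test between arms. Tuft cells with Fabp1 were also deeper than those without (median 6102 against 3428 UMIs), and the part of depth in the shares was not tested. Tuft cells were 1.26%, 2.57% and 1.31% of the epithelial cells of the SZN-1326-p, anti-GFP and uninjured arms. Within Tuft only 2 anti-GFP and 2 uninjured mice had 10 cells, with Fabp1 at 2.80 ± 0.845 and 1.26 ± 1.23 (adjusted p = 0.952), and limma called 0 of 9299 genes there, with 411 at an unadjusted p under 0.05. The genes most like Fabp1 over the 17 types were Dgki, Ly6g6f and Crisp3 (0.983 each).

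Fabp6, the ileal bile acid-binding protein, was found in very few cells at high counts. Of its 1730 UMIs, 1343 (77.6%) were in 7 cells with 10 or more, while 319 of the 334 cells with any had 1 or 2. Of the 7 cells, 6 came from the 2 uninjured mice of 48 h. Mouse 1 gave 1 ImmEntero2 cell with 898 Fabp6 UMIs, 1.86% of that cell's RNA. Mouse 2 gave an AltEnterocyte2 cell with 213, an ImmEntero2 cell with 110, an Enterocyte cell with 47 and 2 TA2 cells with 20 and 17. The remaining cell was an AltEnterocyte2 cell of anti-GFP mouse 2 at 24 h, with 38. Slc10a2 was present in 6 of the 7, at 7 to 22 UMIs, and Fgf15, the FXR target gene of the ileum, and Apoa1, an apolipoprotein of small intestinal enterocytes, were at 0 in all 7. Sis, the sucrase-isomaltase gene of small intestinal enterocytes, was present in 2 of the 7, at 11 UMIs in the cell with 898 Fabp6 UMIs and 13 in the cell with 213, and Nr1h4 in 6 of the 7, at 1 to 13 UMIs. Over the epithelium Fabp6 was 0.326 and 0.246 in these 2 uninjured mice and 0.0216 and 0.0296 in the other 2, with anti-GFP mice between 0.0179 and 0.114. Without the 7 cells the change between anti-GFP and uninjured mice was 0.10 (adjusted p = 0.846).

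The wider pathway lists, chosen with earlier results of these data known, place the members among related genes. In anti-GFP against uninjured epithelium, where the median change of all genes was 0.005, 10.8% of all genes were called higher and 12.5% lower, other bile acid transport and modification genes had 2 of 8 tested higher and 5 lower (median -0.75). Among the lower ones were Cyp3a13 (-1.66, adjusted p = 3.81e-05), a cytochrome P450 of the family that hydroxylates bile acids and drugs, Sult2b1 (-1.64, 4.01e-05), a sulfotransferase of sterols, and Abcg2 (-1.10, 0.000815), an apical efflux pump, and Abcc4, a basolateral efflux pump, was higher (1.08, 0.000728). Of the 4 bile acid sensing genes tested none was called. Lipid-binding proteins outside the 6 had 2 of 5 lower, with the retinol-binding Rbp2 at -2.49 (0.000214) and the sterol carrier Scp2 at -0.54 (0.0186). Fatty acid uptake and storage had 3 of 15 lower, led by the acyl-CoA synthetase Acsl3 (-1.79, 3.98e-06), and oxidation had 4 of 19 lower and 1 higher, the higher one being Cpt1a (0.54, 0.00937), which admits fatty acids to mitochondria. Lipoprotein and sterol genes had 3 of 8 lower, including the sterol pump gene Abcg5 (-1.41, 0.00203). Of 15 colonocyte genes 7 were lower and 1 higher, with Aqp8, a water channel, at -1.95 (0.00613) and Slc26a3, a chloride exchanger, at -1.47 (0.000444). Of 12 small intestinal genes 3 were lower and 2 higher, and of 13 transcription factors 2 were lower, among them Creb3l3 (-1.27, 0.0118), and 1 higher.

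In SZN-1326-p against anti-GFP epithelium, where the median change of all genes was -0.09 and 17.2% of all genes were called lower, no gene of these lists was called higher. Bile acid sensing had 3 of 4 lower: Nr1h4, the FXR gene (-0.69, adjusted p = 0.00466), its partner Rxra (-0.64, 0.0011) and the pregnane X receptor gene Nr1i2 (-0.54, 0.00727). Bile acid transport and modification had 5 of 8 lower (median -0.82), with Abcg2 at -1.58 (2.75e-05) and Cyp3a13 at -1.23 (0.000264). Apob, the structural protein of chylomicrons, was lower (-1.66, 0.000421), as was its editing enzyme gene Apobec1 (-1.64, 0.000163), the 2 called of 8 lipoprotein and sterol genes. Fatty acid uptake had 4 of 15 lower, led by Dgat2 (-1.19, 0.00302), which makes triglyceride, oxidation 5 of 19, among them the mitochondrial acylcarnitine carrier gene Slc25a20 (-0.94, 0.000339), lipid-binding proteins 1 of 5, Acbd3 (-0.39, 0.0235), and transcription factors 4 of 13, including Hnf4a (-0.41, 0.0207). Small intestinal genes had 7 of 12 lower (median -1.09), led by the alkaline phosphatase gene Alpi (-2.63, 1.46e-05), and colonocyte genes 14 of 15 (median -1.31), led by Guca2a, the guanylin gene (-2.07, 2.63e-05).

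Within AltEnteroPC, where the median change of all genes between anti-GFP and uninjured mice was 0.25, 3 of 4 bile acid sensing genes were higher in anti-GFP mice: Nr1i2 (1.59, adjusted p = 0.0053), Rxra (1.46, 0.0113) and Nr1h4 (1.11, 0.00233). Bile acid transport and modification had 3 of 8 higher, among them Abcc3 (1.56, 0.000506), a basolateral exporter of bile acid conjugates. Oxidation had 5 of 19 higher, uptake and storage 4 of 13, lipoprotein genes 1 of 6 and lipid-binding proteins 0 of 6, and none of these was lower. Of 14 colonocyte genes 10 were higher, with Krt20 at 2.26 (0.00603), and of 7 small intestinal genes 3, with Clec2h at 2.58 (1.87e-07). Of 10 transcription factors Hnf4a was higher (0.65, 0.0469) and Cdx1 lower (-0.50, 0.0401). The transporters therefore stood among many genes called higher in this type, where 14.9% of all genes were.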

How the data were processed

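Single cells of the transverse colon were prepared from an EDTA-released epithelial fraction and an enzymatic digest of the remaining tissue, and sequenced with 10x chemistry version 3. Reads were processed with Cell Ranger 3.0.2 and the mm10 genome, per the submitters' processing notes. The deposited values are log2 expression values that the authors made from UMIs divided by a size factor per cell, plus 1, with an annotation of each cell. The method of the size factors, the cell filters and the treatment of doublets are not given in the sources used here. Undoing the log gave whole UMIs for 100% of 60867816 values above 0 (tolerance 1e-06). The arm written SWAP in the annotation was read as SZN-1326-p.

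Normalized UMIs were averaged per mouse over epithelial cells or over a type (at least 10 cells). limma 3.58.1 in R 4.3.3, with trend and robust settings, was run on log2(mean + 0.01) with 6 groups of arm and time in 1 fit, over genes with a mean of at least 0.05 in at least 2 mice, with Benjamini-Hochberg adjustment over all genes kept. A call is an adjusted p under 0.05. Where a time had no mice, arms were compared without time. Fold changes of low genes are understated on this scale. The model was tested on simulated data. Exact permutation tests used scipy 1.17.1, and other steps Python 3.11.15, numpy 2.4.6, pandas 2.3.3 and matplotlib 3.10.9. The alternatives were another constant (0.1), no filter, the mean of the deposited log2 values, limma voom on the UMI sums, another scaling, a replicate block, other cell minimums (5 and 20), only the groups compared, a term for libraries with more long transcripts, the fits without 2 mice of high mitochondrial share, without cells bearing 2 immune or stromal markers and at 24 h alone, and each mouse left out.

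The 6 genes, the gene lists, markers and motifs were chosen with earlier results of these data known. The 6 genes are named throughout. Of each list all genes were counted, and up to 4 of the called ones with the largest change could be named. Likeness names the 3 genes with the highest correlation. Tests within AltEnteroPC, AltEnterocyte, TA2 and other types, the fits at 24 h alone and those without 7 cells high in Fabp6 were added after the data were seen. Promoter windows are RefSeq's.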

Additional observations from a re-analysis of the deposited data

Results flagged for a closer look

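Of 49 groups of 4 to 10 mice examined, 13 held 1 mouse far from the others by Dixon's criterion. For normally distributed values chance meets it in about 1 group in 20. That rate does not hold here: where all other mice are at 0, as in several groups below, any UMI flags a mouse. The groups also share mice, so the 13 cannot be read as an excess. Slc10a2 over the epithelium was 1.63 in anti-GFP mouse 1 at 24 h, against 0.216 to 0.672 in the other anti-GFP mice. The same mouse had 5.82 Slc10a2 in AltEnterocyte2, against 3.08 to 3.67. In AltEnteroPC, uninjured mouse 1 at 24 h had 0.0303 Slc10a2 and the other uninjured mice had 0. In AltEnterocyte, SZN-1326-p mouse 1 at 48 h had 2.59 Slc10a2, against 0.730 to 1.03 in the other SZN-1326-p mice.

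In 3 populations Slc51a stood apart in 1 SZN-1326-p animal, mouse 2 at 24 h: 0.830 over the epithelium (others 0.0111 to 0.220), 0.650 in AltEnteroPC (others 0.0457 to 0.223) and 0.582 in AltEnterocyte (others 0 to 0.0954). Over the epithelium SZN-1326-p mouse 3 at 24 h had 0.0442 Fabp1 (others 0 to 0.0128). Fabp1 was 0.113 in AltEnterocyte2 of anti-GFP mouse 2 at 24 h (others 0 to 0.0246) and 0.0380 in AltEnterocyte of SZN-1326-p mouse 2 at 24 h (others 0). Fabp6 in anti-GFP mouse 2 at 24 h was 0.114 over the epithelium (others 0.0179 to 0.0531) and 1.23 in AltEnterocyte2 (others 0 to 0.347), and in anti-GFP mouse 1 at 48 h it was 0.0230 in AltEnterocyte (others 0).

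The change between anti-GFP and uninjured mice differed between AltEnteroPC and AltEnterocyte2 for 3 of 4 genes compared. The difference of the log2 changes was 5.57 for Slc10a2, 2.86 for Slc51a and 2.68 for Slc51b. Each had an exact permutation p of 0.0357 (5 against 3 mice), the smallest possible there, and 0.0476 when adjusted over the 4 genes. Times were pooled, and the test is not independent of how the genes were chosen. The groups did not overlap in this difference for 12.7% of all genes. The causes were not tested.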

How the results depend on the processing

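Of 1474 values of the 6 genes under alternatives, 1389 kept direction and side of the threshold, 70 lost the call, 13 gained it and 2 reversed: Fabp6 between anti-GFP and uninjured epithelium was 0.00127 (adjusted p = 0.903) on the mean of the deposited log2 values and 0.0990 (0.846) without the 7 cells high in Fabp6. Of 3739 values of list genes, 3259 kept both and 480 lost the call. The causes were not tested. Fabp1, Fabp6 and the shares in Tuft are limited by UMI depth.

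Counts of genes called moved as follows. Over the epithelium, anti-GFP against uninjured gave 2510, and 3774 with voom. The SZN-1326-p comparison gave 1095 at 24 h, 2145 with voom, 0 with only the groups compared (2104 at an unadjusted p under 0.05, limma), 2386 with the replicate block, 1694 with the term for libraries with more long transcripts and 360 without the 2 mice of high mitochondrial share. At 48 h it gave 1345, 2399 with the block, 2556 with the library term and 812 without those mice. The difference of the 48 h and 24 h effects gave 15, 1 without a filter, 6 with a constant of 0.1, 25 on the deposited log2 means, 0 with voom (1180 at an unadjusted p under 0.05), 6 with only the groups compared, 99 with the block, 60 with the library term, 0 without the 2 mice (598 at an unadjusted p under 0.05) and 34 without cells bearing 2 immune or stromal markers.

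In AltEnterocyte2, anti-GFP against uninjured gave 503, 281 with 0.1, 188 on deposited means, 47 with voom and 11 with at least 20 cells, and SZN-1326-p against anti-GFP gave 1, 0 without a filter (631 at an unadjusted p under 0.05, limma), 5 with 0.1, 8 on deposited means, 11 with voom, 2 with 20 cells and 3 at 24 h alone. In AltEnterocyte3, anti-GFP against uninjured gave 26, 1 on deposited means, 12 with voom, 15 with the block and 78 with at least 5 cells, and SZN-1326-p against anti-GFP gave 21, 5 with 0.1, 1 on deposited means, 1 with voom, 11 with median-of-ratios scaling, 0 with the block (591 at an unadjusted p under 0.05, limma), 99 with 5 cells and 4 at 24 h alone. In AltEnteroPC, anti-GFP against uninjured gave 1988, 1079 with voom and 1021 with only the groups compared, and SZN-1326-p against anti-GFP gave 54, 21 without a filter, 86 with 0.1, 290 on deposited means, 739 with voom, 737 with only the groups compared and 145 with 20 cells. In AltEnterocyte, SZN-1326-p against anti-GFP gave 94, 146 on deposited means, 210 with voom and 370 with 20 cells.

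With each mouse left out, the counts ran over the epithelium from 1028 to 2980 for anti-GFP against uninjured, and for SZN-1326-p against anti-GFP from 2065 to 3646 at both times, 275 to 1880 at 24 h, 590 to 1616 at 48 h and 0 to 21 for the difference of times. Within types they ran from 156 to 737 and 0 to 2 in AltEnterocyte2, 17 to 42 and 0 to 52 in AltEnterocyte3, and 1430 to 3204 and 3 to 163 in AltEnteroPC, for anti-GFP against uninjured and SZN-1326-p against anti-GFP in that order, and from 46 to 176 in AltEnterocyte.

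Same-numbered SZN-1326-p and anti-GFP mice did not all deviate together (correlations 0.385, -0.305 and 0.445 at 24 h, 0.134, 0.0659 and 0.315 at 48 h). For anti-GFP and uninjured mice the correlations were 0.345 and -0.219 at 24 h and 0.0954 and 0.111 at 48 h. Mouse 1 of each arm at 24 h was among the libraries with more long transcripts. These values do not decide whether the numbers pair the mice. The main fits treated the mice as unpaired. With the replicate block Fabp2 was called between SZN-1326-p and anti-GFP epithelium (-0.39, adjusted p = 0.0387) and in AltEnteroPC of anti-GFP against uninjured mice (-0.67, 0.0473). In AltEnterocyte3 the block called Slc10a2 (4.32, 0.0316) and Slc51a (6.89, 0.0249) and lost Fabp2 (-2.41, 0.851).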

Other observations

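Over cell types, 197 of the 6059 genes of at least 0.5 normalized UMIs in some type (3.25%) had their highest level in AltEnterocyte2. Of the 9 lists, this held for 4 of 19 fatty acid oxidation genes, 2 of 10 lipoprotein and sterol genes, 3 of 15 small intestinal genes, 1 of 7 bile acid sensing genes, 2 of 15 transcription factors, 1 of 10 lipid-binding genes, 1 of 11 bile acid transport genes, 1 of 15 colonocyte genes and 1 of 16 fatty acid uptake genes. List genes were counted whatever their level, so these shares and the 3.25% cover unlike sets of genes. Apob stood at 4.06 normalized UMIs per cell in AltEnterocyte2. Abcg5 was highest in AltEnterocyte3, at 0.443. Fgf15, the hormone gene that ileal enterocytes express in response to bile acids, had 18 UMIs in all cells, and the fatty acid transporter gene Cd36 had 13 in epithelial cells.

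Within AltEnterocyte2, Acsl3 (-1.47, limma adjusted p = 0.012), Abcg5 (-3.77, 0.00269), Rbp2 (-2.02, 0.0116) and Guca2a (-1.10, 0.00802) were lower in anti-GFP than in uninjured mice, and Acadl (1.54, 0.000609), an acyl-CoA dehydrogenase gene, and Nr5a2 (1.35, 0.0314), a nuclear receptor gene, were higher. None of the 4 sensing and 8 transport genes tested there was called.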
